A study of Mus musculus with 2 samples.

Results

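Neutrophils with at least 1 unique molecular identifier (UMI, 1 counted RNA molecule) of Retnlg or Stfa2l1 were described in CD45+ cells of mouse allograft tumours. Members were taken from barcodes in which 200 genes or more were detected and mitochondrial genes held no more than 10% of the UMIs, if they had 3 or more of the 7 genes S100a8, S100a9, Csf3r, G0s2, Cxcr2, Il1r2 and Slpi, at least 5 UMIs of S100a8 and S100a9 together, at most 1 UMI of the Cd3 genes, at most 2 of the C1q genes, none of Cd79a, and at least 1 UMI of Retnlg or Stfa2l1. There were 200 such cells among 616 neutrophils chosen by the same rule without its last part, among 11197 barcodes that passed the filters on genes and mitochondrial UMIs, and among 11500 barcodes in all. The other 416 neutrophils had no UMI of either gene and are called other neutrophils here. The rule was set on the measured UMIs of these cells, so the values of its genes are given as descriptions.

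The study deposited a pair of single-cell RNA libraries, 1 per group, made with 10x 3′ v3.1 chemistry from subcutaneous KP tumours collected on day 14. The library labelled KPT carries the genotype label Tdg KO, and the library labelled KP carries the genotype label WT. Live CD45+ cells had been sorted from both after enzymatic dissociation and a Percoll step. The labels do not say whether tumour cells, host cells or both lacked Tdg, do not spell out KP, and do not give the number of mice behind each library. Tdg, the gene named by the genotype label, codes for a glycosylase that removes thymine and oxidised cytosine bases from DNA. It had 3 UMIs in KPT members and 8 UMIs in KP members, and a 3′ tag outside a deleted part would not check the genotype in any case. With 1 library per group there was no replicate, so no test was made, intervals cover counting error only, and a difference between libraries cannot be told apart from a difference between mice, dissections or captures.

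Neutrophils are short-lived granulocytes that leave the bone marrow with their granule proteins already made and change their transcripts again once inside a tissue. S100a8 and S100a9 encode the subunits of calprotectin, the most abundant cytosolic protein complex of these cells. Retnlg encodes resistin-like gamma, a small secreted protein that mouse neutrophils make, and Stfa2l1 encodes a stefin A-like protein of the mouse family of inhibitors of cysteine cathepsins. Transcripts of both genes are used in mice to mark neutrophils close to their state in blood, before tissue-induced genes such as Il1f9 dominate.

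Both genes used by the last part of the rule lie on chromosome 16. In the GRCm38 annotation of GENCODE M21, Retnlg lies at chr16:48872621-48874496 and Stfa2l1 at chr16:36156811-36161953, both on the plus strand. Stfa2l1 is 1 of 10 genes of the stefin A cluster between Csta1, which starts at 36119946, and Stfa3, which ends at 36455392. Cstdc4, at chr16:36184212-36188111, is the next member of the cluster described below. The RefSeq promoter windows of GRCm38.p6, from 250 bases before to 50 bases after the start, are shown for these 3 genes because their transcripts were found in the same cells, and for Ldha and Bnip3 because they belong to a group of hypoxia genes that stood lower in KPT members. Capitals mark the core sequence of the hypoxia response element (ACGTG or its reverse complement CACGT) and a C/EBP-type sequence (TTGCNNAA or its reverse complement TTNNGCAA). Both strands were searched. The letters of a sequence and its reverse complement can overlap, as in CACGTG, and overlapping matches were counted as 1 place.
The windows are Retnlg at chr16:48872358-48872657, plus strand, Stfa2l1 at chr16:36156561-36156860, plus strand, Cstdc4 at chr16:36183962-36184261, plus strand, Ldha at chr7:46845554-46845853, plus strand, and Bnip3 at chr7:138909457-138909756, minus strand.
Retnlg promoter: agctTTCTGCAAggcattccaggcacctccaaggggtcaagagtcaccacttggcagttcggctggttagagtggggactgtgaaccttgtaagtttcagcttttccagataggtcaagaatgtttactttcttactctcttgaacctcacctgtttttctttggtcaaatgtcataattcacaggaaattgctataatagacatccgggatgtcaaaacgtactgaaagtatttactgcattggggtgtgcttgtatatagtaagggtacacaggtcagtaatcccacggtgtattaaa
Stfa2l1 promoter: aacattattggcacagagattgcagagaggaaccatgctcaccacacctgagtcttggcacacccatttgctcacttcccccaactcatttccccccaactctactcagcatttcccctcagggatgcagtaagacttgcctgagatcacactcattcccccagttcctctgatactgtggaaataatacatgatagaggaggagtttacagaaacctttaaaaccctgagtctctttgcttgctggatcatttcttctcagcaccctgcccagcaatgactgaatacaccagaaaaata
Cstdc4 promoter: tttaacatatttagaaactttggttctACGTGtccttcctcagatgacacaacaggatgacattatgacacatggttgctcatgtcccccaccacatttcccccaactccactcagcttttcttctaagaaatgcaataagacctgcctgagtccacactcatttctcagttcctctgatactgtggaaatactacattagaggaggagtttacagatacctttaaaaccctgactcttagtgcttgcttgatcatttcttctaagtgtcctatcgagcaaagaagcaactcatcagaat
Ldha promoter: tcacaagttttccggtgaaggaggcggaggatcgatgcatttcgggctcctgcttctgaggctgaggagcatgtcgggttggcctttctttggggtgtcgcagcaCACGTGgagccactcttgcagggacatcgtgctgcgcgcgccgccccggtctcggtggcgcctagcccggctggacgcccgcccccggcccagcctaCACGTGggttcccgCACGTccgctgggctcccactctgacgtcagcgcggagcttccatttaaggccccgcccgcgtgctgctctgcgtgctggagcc
Bnip3 promoter: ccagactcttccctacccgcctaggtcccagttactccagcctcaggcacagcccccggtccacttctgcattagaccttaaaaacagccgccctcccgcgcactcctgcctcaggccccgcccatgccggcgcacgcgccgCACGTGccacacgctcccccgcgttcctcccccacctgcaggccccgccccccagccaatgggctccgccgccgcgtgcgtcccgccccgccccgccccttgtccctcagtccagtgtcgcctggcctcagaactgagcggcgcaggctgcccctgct

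The C/EBP-type sequence was found in 10.8% of all 32851 RefSeq promoter windows, and in the window of Retnlg but not in those of Stfa2l1 and Cstdc4. The hypoxia core was found in 19.6% of all windows. It stood at 3 places in the Ldha window, at 1 place in the Bnip3 window and at 1 place in the Cstdc4 window. Ldha had 2 starts, and the window with the most matches is the one shown, so its count is not comparable with the share of all windows. Of the 26 genes of the hypoxia and glycolysis list that had a window, 19 (73.1%) held it at 1 start or more, against 21.8% of all 27025 genes. These matches describe letters, not bound sites.

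The members were rarer in the KPT library. They made up 39 of 5693 kept barcodes in KPT, or 0.685% (95% Clopper-Pearson interval 0.488 to 0.935), and 161 of 5504 in KP, or 2.93% (2.50 to 3.41). The ratio of the shares, KPT over KP, was 0.234 (0.161 to 0.334). Other neutrophils made up 1.97% of KPT barcodes and 5.52% of KP barcodes, a ratio of 0.356 (0.284 to 0.444). Within the neutrophils, members were 25.8% (19.1 to 33.6) of 151 cells in KPT and 34.6% (30.3 to 39.1) of 465 cells in KP, and the interval of that ratio, 0.512 to 1.06, held 1. After each neutrophil had been thinned to 500 UMIs, 13.2% of KPT neutrophils and 21.9% of KP neutrophils still held a UMI of either gene, a ratio of 0.604 (0.354 to 0.982). A share of sorted CD45+ cells falls when other cells become more numerous, so these shares are not cell numbers per tumour.

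**Figure D1:**
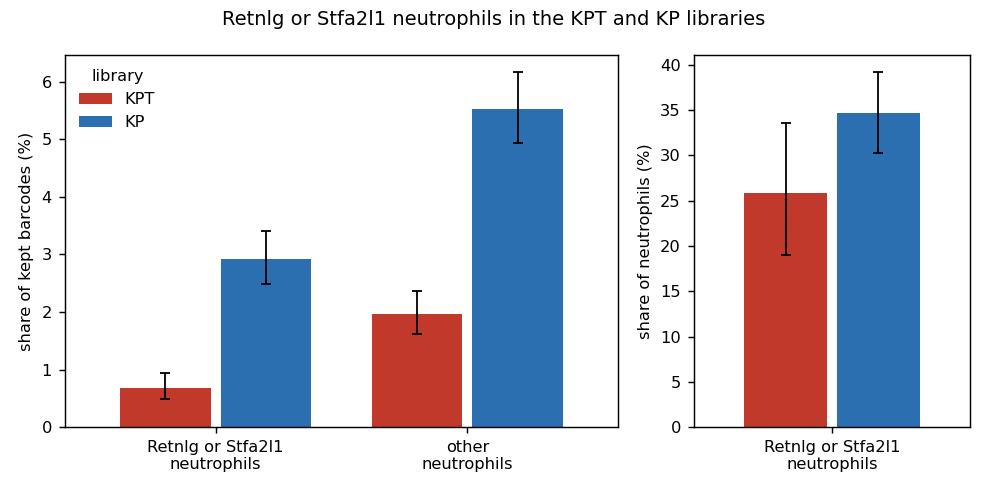
Share of barcodes in the KPT (red) and KP (blue) libraries, with bars from 0 and 95% Clopper-Pearson intervals that cover counting error only. The left panel gives the share of kept barcodes and the right panel the share of all neutrophils: members were 0.685% of kept barcodes in KPT and 2.93% in KP.

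The defining markers were high. S100a8 and S100a9 together took 6.10% of the UMIs of KPT members and 8.30% of those of KP members, against 0.0590% and 0.201% of the UMIs of all kept barcodes. A KPT member had a median of 117 UMIs of the calprotectin genes and a KP member 148, against 65.5 UMIs in other KPT neutrophils and 69 in other KP neutrophils. Azurophil granule transcripts, made early in the marrow, were rare: none of the 7 listed genes of the azurophil granule reached 50 UMIs over the members of both libraries, and Ltf, the lactoferrin gene of the specific granule, had 2 UMIs in KPT members and 10 in KP members. Lcn2, the lipocalin of the same granule, had 128 UMIs in KPT members, 57.8% of them in 1 cell, and 180 in KP members. Ly6g, the gene of the usual antibody marker, had 3 UMIs in KPT members and 5 in KP members.

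Neutrophils were shallow cells, members and others alike. The 39 KPT members held 128573 UMIs with a median of 2695 per cell, and the 161 KP members held 375639 UMIs with a median of 1648, while other neutrophils had medians of 2416.5 UMIs in KPT and 1933.5 in KP, and all kept barcodes 6419 and 5378. The median number of detected genes was 661 in KPT members and 537 in KP members. Mitochondrial transcripts were 0.157% of the UMIs of the median member in each library. Of 8 barcodes that occurred in both libraries, 0 belonged to members. Free RNA was gauged in B cells, which should lack these genes: Retnlg had a UMI in 0 of 134 KPT B cells, which allows a share of up to 2.24%, and in 2 of 204 KP B cells (0.980%), and Stfa2l1 in 0 KPT and 1 KP B cells, at median depths of 3602.5 UMIs in KPT and 3671 UMIs in KP. S100a8 had a UMI in 2.99% of KPT B cells and 9.31% of KP B cells.

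Most members held UMIs of Retnlg or of Stfa2l1 but not of both. In KPT, 18 members had Retnlg alone, 16 had Stfa2l1 alone and 5 had both (12.8%, 4.30 to 27.4). In KP, 56 had Retnlg alone, 65 had Stfa2l1 alone and 40 had both (24.8%, 18.4 to 32.3). Counts were low: 17 of 39 KPT members and 44 of 161 KP members entered on exactly 1 UMI, and 10 KPT members and 66 KP members had 5 or more. A cell with exactly 1 UMI cannot hold both genes, so the split between the genes is in part set by the rule and the low counts. The median sum of both genes was 2 UMIs in KPT and 3 in KP, and the highest 82 in KPT and 45 in KP. The KPT cell with 82 UMIs held 44 of the 125 Retnlg UMIs and 38 of the 99 Stfa2l1 UMIs of its library. Levels are given as CPM, which sets each gene's UMI count against all UMIs of its group of cells. Retnlg stood at 972 in KPT members and 881 in KP members, and Stfa2l1 at 770 in KPT members and 1528 in KP members. Cells just inside the threshold of 1 UMI had a median of 131 calprotectin UMIs in KPT and 115 in KP, and those just outside, with 0 UMIs, 65.5 and 69. With all neutrophils thinned to 500 UMIs, S100a8 in KP stood at 33510 CPM in cells left with 0 UMIs of Retnlg and Stfa2l1, 57222 CPM with 1, 74286 CPM with 2 to 4 and 85083 CPM with 5 or more. In KPT the same order of cells gave 29099, 63636, 45200 and 64500 CPM, the last 2 values over 5 and 4 cells. At the threshold of 5 calprotectin UMIs, 0 KPT and 3 KP members had 5 to 9 UMIs, while 2 KPT and 1 KP barcodes that met the rest of the rule had 3 or 4.

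**Figure D2:**
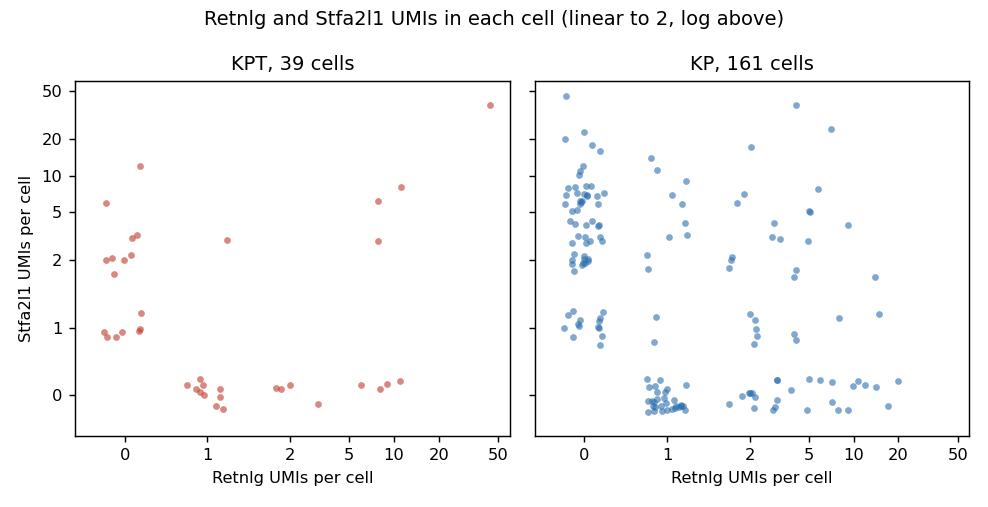
Retnlg UMIs (x axis) against Stfa2l1 UMIs (y axis) in each member, KPT left and KP right, on axes that are linear to 2 UMIs and logarithmic above, with a small random shift so that equal cells can be seen. Most cells lie along 1 of the 2 axes, where a cell with exactly 1 UMI must lie. UMIs of both genes were found in 5 of 39 KPT cells and 40 of 161 KP cells, and 1 KPT cell with 44 Retnlg and 38 Stfa2l1 UMIs stands apart.

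Other genes of the stefin A cluster were found in members as well. Cstdc4 stood at 2139 CPM in KPT members and 209 CPM in other KPT neutrophils, and at 3141 CPM in KP members and 456 CPM in other KP neutrophils. It was thus 10.2 times (7.84 to 13.5) as high in KPT members and 6.89 times (6.08 to 7.83) as high in KP members as in the other neutrophils of the same library. A Cstdc4 UMI was found in 38.5% of KPT members and 53.4% of KP members, against 13.4% and 15.5% of the other neutrophils. Within the KP members it was seen in 43 of 65 cells with Stfa2l1 alone and 31 of 40 cells with both genes, but in 12 of 56 cells with Retnlg alone; in KPT it was seen in 8 of 16, 3 of 5 and 4 of 18 such cells. Stfa1 had 2 UMIs in KPT members and 0 in other KPT neutrophils, and 57 UMIs in KP members and 2 in other KP neutrophils. Csta2 had 9 and 0 UMIs in KPT members and other KPT neutrophils, and 39 and 5 UMIs in KP members and other KP neutrophils. All 35 UMIs of Stfa2 lay in the KPT cell with the most Stfa2l1. Of the 10 genes of the cluster, 9 had at least 1 UMI in members, and Csta1 had none. Stfa2l1 transcripts were 96.0% identical to those of Stfa2 over 373 aligned bases and 80.6% identical to those of Cstdc4 over 408 aligned bases, so UMIs may have been assigned to a close copy, and the split of UMIs within the cluster is uncertain. Cstb, the stefin B gene elsewhere in the genome, stood at 1836 CPM in KPT members and 1551 CPM in other KPT neutrophils, and at 2939 and 2792 CPM in KP.

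Few genes stood apart from other neutrophils in both libraries. Because the members were chosen from the UMIs of these same cells, what follows is a description with no test. At a ratio of 2 or more, 46 of 1278 genes with at least 50 UMIs (3.6%) were higher and 96 (7.51%) lower in KPT members than in other KPT neutrophils, 11.1% either way. In KP, 33 of 2360 genes (1.4%) were higher and 142 (6.02%) lower, 7.42% either way. The median gene stood at a log2 ratio of -0.17 in KPT and -0.20 in KP. In both libraries together, 4 of 1270 genes (0.315%) were at least 2-fold higher in members and 9 (0.709%) at least 2-fold lower, while 14 (1.1%) were 2-fold apart in opposite directions. The 4 genes were Retnlg, Stfa2l1, Cstdc4 and Smox. Retnlg and Stfa2l1 were at 0 in other neutrophils by the rule, so their place here, and among the 46 and 33 genes, was fixed in advance. Smox, a spermine oxidase gene, was picked out after its values were seen. It stood at 373 CPM in KPT members and 162 CPM in other KPT neutrophils, and at 423 CPM in KP members and 188 CPM in other KP neutrophils. The 9 lower genes included Siglecf, given below, and Romo1, a small protein of the inner mitochondrial membrane, at 70.0 CPM in KPT members and 159 CPM in other KPT neutrophils, and at 71.9 CPM in KP members and 194 CPM in other KP neutrophils.

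The calprotectin genes stood higher in members of both libraries, and their relatives did so in part. S100a9 stood at 33421 CPM in KPT members and 21526 CPM in other KPT neutrophils, and at 42623 CPM in KP members and 23507 CPM in other KP neutrophils, ratios of 1.55 in KPT and 1.81 in KP. S100a8 gave ratios of 1.40 and 1.53. S100a6, a calcium sensor of the same family that the rule did not use, stood at 4099 CPM in KPT members and 2799 CPM in other KPT neutrophils, and at 5226 CPM in KP members and 3479 CPM in other KP neutrophils. S100a11 gave 1.35 in KPT and 1.65 in KP. The other members of the list, S100a4 and S100a10, gave 0.854 and 0.750 in KPT and 0.936 and 1.92 in KP. None of these reached 2-fold, and the list's median log2 ratio over its 4 genes was 0.11 in KPT and 0.65 in KP. Among genes of small proteins with a WAP domain, Wfdc17 gave 1.63 in KPT and 1.71 in KP, and Wfdc21 gave 4.27 in KPT and 1.55 in KP. A Wfdc21 UMI was found in 20.5% of KPT members and 44.1% of KP members, against 13.4% and 25.7% of other neutrophils and 2.99% and 0.490% of B cells. Without the KPT cell that held the most Wfdc21, the KPT ratio was 2.30.

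Genes of the specific granule and its membrane went different ways in the libraries. In KPT, 4 of 5 measured genes of 12 listed were at least 2-fold higher in members than in other neutrophils, against 3.6% of all genes, with a median log2 ratio of 1.51. They were Lyz2 (9.31), Lcn2 (3.04), Cybb (2.85), a subunit of the phagocyte oxidase, and Anxa1 (2.64), the annexin A1 gene. Lyz2 is also on the list of classical monocyte markers used below, and 439 of its 667 UMIs in KPT members lay in 1 cell. Without the cell with the most UMIs in each group the Lcn2 ratio was 1.64. In KP, 0 of 8 measured genes were higher and Ltf and Cybb were lower, against 1.4% and 6.02% of all genes. The median there was -0.50. Between the libraries, Lyz2, Lcn2 and Cybb of 5 measured genes were at least 1.5-fold higher in KPT members than in KP members. Among all genes 16.3% were higher. Lcn2 gave 2.08, or 1.09 without the top cells, and the Lyz2 ratio was 0.519 where the rule was applied after thinning to 500 UMIs. In other neutrophils 0 of 6 measured genes were higher in KPT and 3 lower, against 14.4% and 10.5% of all genes. The median log2 ratio of the list there was -0.63.

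Among secreted and surface proteins, Ccl6, a chemokine gene of mouse myeloid cells, stood at 1843 CPM in KPT members and 248 CPM in other KPT neutrophils (7.44-fold), and at 2239 CPM in KP members and 1284 CPM in other KP neutrophils (1.74-fold). Cxcl3, a ligand of the receptor Cxcr2, was 2.06-fold higher in KPT members and 1.33-fold higher in KP members. Vim, the intermediate filament vimentin, was 2.20-fold and 1.91-fold higher in KPT and KP members. Clec4d, a C-type lectin receptor for fungal and mycobacterial ligands, gave 1.91 in KPT and 1.32 in KP, and Cd14, the coreceptor for lipopolysaccharide, 1.76 and 1.25. Their list of pattern recognition and Fc receptors did not go one way: 0 genes passed 2-fold in either library, and the median log2 ratio was 0.33 in KPT over 19 measured genes and -0.24 in KP over 25. Fpr1, the receptor for formylated peptides, gave 2.25 in KPT, on 29 UMIs in members and 34 UMIs in other neutrophils, and 1.34 in KP.

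**Figure D3:**
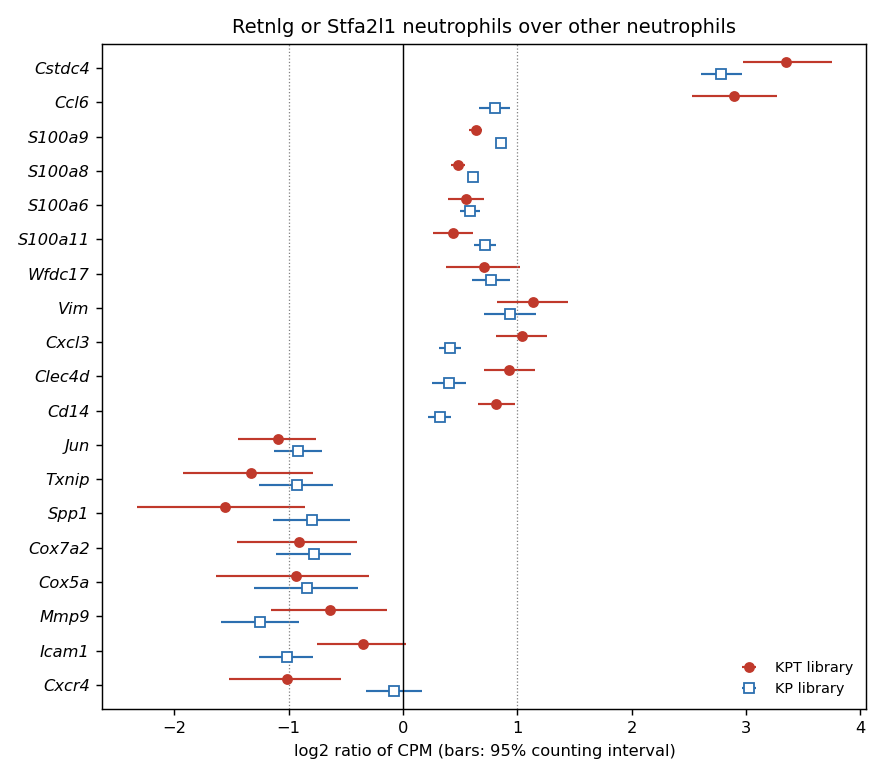
Log2 ratio of CPM in members over other neutrophils in the KPT library (filled circles) and the KP library (open squares), with 95% counting intervals; dotted lines mark a 2-fold difference. Cstdc4 lies farthest to the right in both libraries, with ratios of 10.2 and 6.89, and Jun to the left at 0.468 and 0.530.

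Some genes stood below other neutrophils in both libraries, mostly by less than 2-fold in KP. Jun, a subunit of the transcription factor AP-1, stood at 661 CPM in KPT members and 1413 CPM in other KPT neutrophils, and at 650 CPM in KP members and 1225 CPM in other KP neutrophils. Txnip, whose product binds thioredoxin and restrains glucose uptake, gave ratios of 0.397 in KPT and 0.525 in KP, and Spp1, the osteopontin gene, 0.341 and 0.576. Of the 22 listed nuclear genes of oxidative phosphorylation, 20 were measured with 50 UMIs in KPT and 21 in KP. None passed 2-fold, and their median log2 ratio was -0.42 in KPT and -0.54 in KP, against -0.17 and -0.20 for all genes. Cox7a2 and Cox5a, subunits of cytochrome c oxidase, gave 0.533 and 0.523 in KPT and 0.584 and 0.560 in KP. Mmp9, the gelatinase B gene, stood at 327 CPM in KPT members and 507 CPM in other KPT neutrophils, and at 237 and 562 CPM in KP.

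The list of genes that mark neutrophils adapted to tumours, which holds Cxcl2, Il1b, Ccl3 and Hilpda, held genes that went either way. Its median log2 ratio over other neutrophils was -0.08 in KPT over 25 measured genes and -0.14 in KP over 27, with 3 genes higher and 3 lower in KPT, where 3.6% and 7.51% of all genes were, and 0 higher and 3 lower in KP, where 1.4% and 6.02% were. Il1f9, an interleukin 36 gene often used to mark these cells, stood at 856 CPM in KPT members and 1309 CPM in other KPT neutrophils, and at 1115 CPM in KP members and 1084 CPM in other KP neutrophils; a UMI of it was found in 43.6% of KPT members and 47.2% of KP members. Cxcl2, a neutrophil-attracting chemokine gene, had 49419 CPM in KPT members and 33197 CPM in other KPT neutrophils, and 44239 CPM in KP members and 44656 CPM in other KP neutrophils. Siglecf, the gene of a sialic acid receptor of eosinophils and of some tumour neutrophils, stood at 85.6 CPM in KPT members and 183 CPM in other KPT neutrophils, and at 5.32 CPM in KP members and 69.0 CPM in other KP neutrophils. Of 8 eosinophil markers, Siglecf among them, 1 had a UMI in KPT members and 2 in KP members, and Epx, Prg2 and Il5ra were at 0 in both. A list of genes of circulating mature neutrophils gave medians of 0.13 in KPT over 13 measured genes and -0.08 in KP over 14.

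Some contrasts with the other neutrophils did not hold in both libraries. Cxcr4, the receptor that holds neutrophils in the marrow, was lower in KPT members, with 334 CPM against 675 CPM in other KPT neutrophils, but stood at 575 and 607 CPM in KP members and other KP neutrophils. The list of immediate early and heat shock genes had a median log2 ratio of -0.81 in KPT, with 7 of 21 measured genes at least 2-fold lower in members, against 7.51% of all genes. In KP the median was -0.08 and 1 of 21 was lower, near the 6.02% of all genes. Hspa1a, an inducible Hsp70 gene, stood at 77.8 CPM in KPT members and 790 CPM in other KPT neutrophils. In KP it stood at 282 CPM in members and 160 CPM in other neutrophils. Hspa1b, by contrast, was 1 of the 9 genes at least 2-fold lower in members of both libraries. It stood at 0 CPM in KPT members and 310 CPM in other KPT neutrophils, and at 98.5 and 213 CPM in KP. Its KP ratio of 0.463 was 0.755 without the cell with the most UMIs in each group. These genes are known to respond to enzymatic dissociation; the part of handling in the contrast was not tested. Among the 14 genes that were 2-fold apart in opposite directions were Cd74, H2-Aa, H2-Ab1 and H2-Eb1, which encode the class II antigen presentation machinery, and Gzma, Nkg7 and Klrd1 of cytotoxic lymphocytes. Without the cell with the most UMIs of the gene in each group, the KP ratios of the class II genes, 2.29 for Cd74, 4.45 for H2-Aa, 4.08 for H2-Ab1 and 3.14 for H2-Eb1, were 0.991, 0.609, 0.760 and 0.636, so the opposite direction was lost for all 4. Gzma and Nkg7 rested on single cells in KPT, which held 95.5% of the Gzma UMIs and all 12 Nkg7 UMIs of members. Without the top cells the Gzma ratio was 0.0813 in KPT and 5.42 in KP. That of Nkg7 was 0 in KPT and 2.84 in KP, so the opposite direction stayed for both genes.

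Barcodes with 3 or more markers of another cell type made up 4 of 39 KPT members and 14 of 161 KP members, against 13 of 112 and 17 of 304 other neutrophils. The summed level of 8 classical monocyte markers was 6253 CPM in KPT members and 831 CPM in KP members, with all 8 detected in each, and that of 10 dendritic cell markers 1416 CPM in KPT members and 2407 CPM in KP members, with Clec9a and Cd209a at 0 in both and Zbtb46 and Xcr1 at 0 in KP. Natural killer cell markers summed to 381 CPM in KPT members, where Ncr1 and Klrb1c were at 0, and to 674 CPM in KP members. T cell markers summed to 117 CPM in KPT members, with Trac and Cd247 at 0, and to 141 CPM in KP members. In KPT members, 439 of 667 Lyz2 UMIs lay in the deepest barcode, of 15357 UMIs, and all 42 UMIs of Siglech, a gene of plasmacytoid dendritic cells, lay in the second deepest, of 14708 UMIs. Doublets were not called apart from the limits on Cd3, C1q and Cd79a UMIs in the rule.

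Between the libraries, genes of the hypoxia and glycolysis list stood lower in KPT members. Both measured genes of the short stefin list were lower: Stfa1 (0.103, on 2 UMIs in 1 KPT member and 57 UMIs in 9 KP members) and Cstb (0.625). The list lacked Cstdc4, which gave 0.681 and did not pass 1.5-fold, and the rule gene Stfa2l1, which gave 0.504. Stfa2 went the other way, with 35 UMIs in 1 KPT member and 0 in KP members. The interferon and Ifitm genes are described below. At a ratio of 1.5, 196 of 1202 genes with at least 50 UMIs over both libraries' members (16.3%) were higher and 183 (15.2%) lower in KPT members than in KP members, and the median gene stood at a log2 ratio of 0.05. Of the 30 genes of the hypoxia and glycolysis list, 20 were measured, 18 were at least 1.5-fold lower in KPT members and 0 higher, and the median log2 ratio was -1.44. The counting interval lay wholly below 1 for 16 of the 20 genes. In other neutrophils, where 14.4% of 2468 genes were higher and 10.5% lower in KPT, 24 genes of the hypoxia list were measured, 14 were lower and 1 higher, with a median of -0.80. The difference between members and other neutrophils in this contrast was not tested. Against other neutrophils of the same library, the list's median log2 ratio was -0.40 in KPT members over 16 measured genes and 0.16 in KP members over 25.

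Enzymes of glycolysis were lower in KPT members. Gapdh, glyceraldehyde-3-phosphate dehydrogenase, stood at 1167 CPM in KPT members and 2691 CPM in KP members, a ratio of 0.433 (0.363 to 0.515). Ldha, which makes lactate from pyruvate, stood at 327 CPM in KPT members and 1044 CPM in KP members, a ratio of 0.313 (0.222 to 0.431). Eno1, enolase 1, had 20 UMIs in KPT members and 270 in KP members, or 156 and 719 CPM, a ratio of 0.216 (0.130 to 0.341). Every one of these intervals lay below 1. Pgk1 (0.363), Tpi1 (0.334) and Gpi1 (0.328), which encode a kinase and a pair of isomerases of the pathway, were also lower, as was Pfkp (0.180), a phosphofructokinase with 4 UMIs in KPT members and 65 in KP members. Aldoa, at 824 CPM in KPT members and 1344 CPM in KP members, and Pkm, at 677 and 1118 CPM, were lower by smaller factors, with ratios of 0.613 and 0.605. In other neutrophils the ratios were 0.714 for Gapdh, 0.555 for Ldha and 0.531 for Eno1.

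Hypoxia-induced genes outside glycolysis were lower as well. Mif, a cytokine with tautomerase activity, stood at 334 CPM in KPT members and 1408 CPM in KP members, a ratio of 0.237 (0.170 to 0.324), and was detected in 41.0% of KPT members and 65.8% of KP members. Hilpda, a lipid droplet protein that blocks triglyceride breakdown, stood at 194 CPM in KPT members and 809 CPM in KP members, a ratio of 0.240 (0.153 to 0.362). Bnip3 and Bnip3l, which encode receptors for mitophagy, gave 0.417 (101 CPM in KPT members and 242 CPM in KP members) and 0.299 (132 CPM in KPT members and 442 CPM in KP members), and Higd1a, a mitochondrial protein, 0.248. Ldha and Bnip3 had been chosen for the windows shown above because they belong to this lower group. A link between the hypoxia core in their windows and these levels was not tested. Slc2a1, the glucose transporter GLUT1, and Vegfa, the angiogenic growth factor, did not pass 1.5-fold: Slc2a1 stood at 132 CPM in KPT members and 136 CPM in KP members, with a ratio of 0.974 (0.527 to 1.71), and Vegfa at 117 and 122 CPM, with a ratio of 0.953 (0.494 to 1.74). Without the barcodes that held markers of another cell type, 15 of 18 measured genes of the list were lower, with a median log2 ratio of -1.04. With every cell weighted equally, 16 of 20 were lower, with a median of -1.49.

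**Figure D4:**
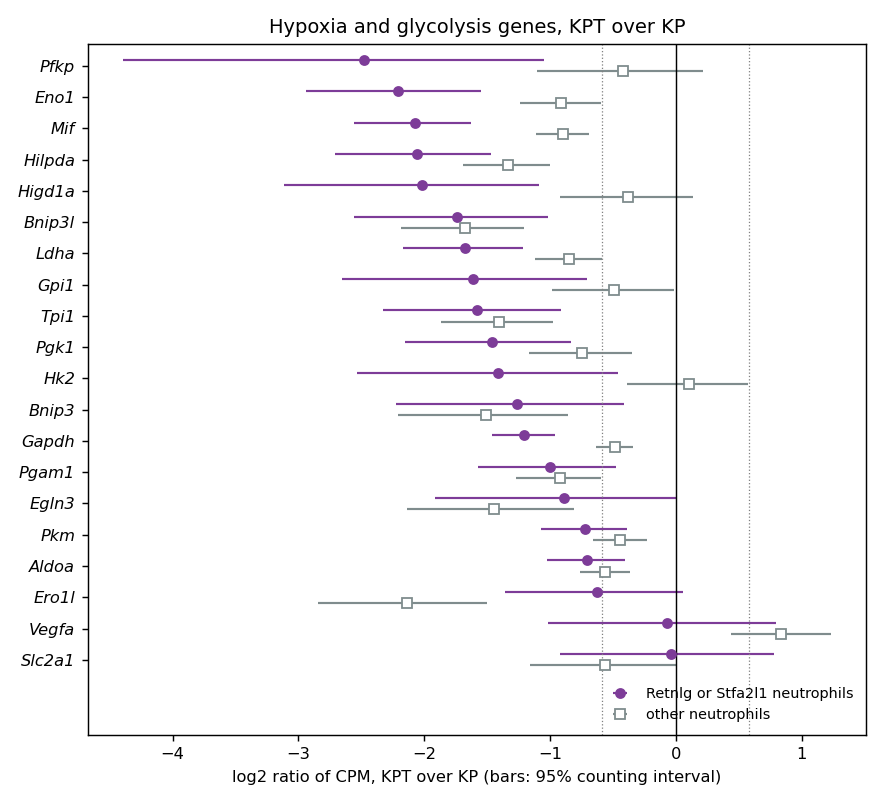
Log2 ratio of CPM, KPT over KP, for the 20 genes of the hypoxia and glycolysis list with at least 50 UMIs in members, in members (filled circles) and other neutrophils (open squares), with 95% counting intervals; dotted lines mark 1.5-fold. In members 18 genes lie beyond the left dotted line, while Vegfa and Slc2a1 lie near 0.

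Genes with the largest ratios in the other direction were concentrated in few cells. Lyz2, the lysozyme gene of myeloid cells, stood at 5188 CPM in KPT members and 650 CPM in KP members, a ratio of 7.99, which was 3.42 without the cell that held the most Lyz2 in each library and 0.519 where the rule was applied after thinning to 500 UMIs. Ly6c2, the monocyte surface marker, had 64 UMIs in 3 KPT members and 9 UMIs in 8 KP members. Bst2, the tetherin gene, had 61 UMIs in KPT members and 17 in KP members; 86.9% of the KPT UMIs came from 1 cell, and the ratio of 10.5 was 2.09 without the top cells. Plac8 (5.25, and 3.72 without the top cells) and Cwc25, a splicing factor gene (7.74, and 1.73 without them), also had much of their KPT total in 1 cell, 44.4% for Plac8 and 83.0% for Cwc25. Ly6e, a Ly6 family surface protein, gave 3.12 and Ahnak, a large scaffold protein, 2.72; Ly6e gave 0.795 among cells with 3 or more UMIs of Retnlg and Stfa2l1. Plac8 gave 0.917 once levels were thinned to 500 UMIs per cell. Psap, the precursor of the lysosomal saposins, Hspa8, the constitutive Hsc70 chaperone, and Mpeg1, the pore-forming perforin-2, were found in more of the cells. Even so, 38.1% of the Psap UMIs of KPT members lay in 1 cell. The shares that follow were not thinned to 1 depth, and KPT members were the deeper cells. Psap had a UMI in 41.0% of KPT members and 32.3% of KP members and a ratio of 2.82, Hspa8 in 43.6% and 38.5% with a ratio of 2.78, and Mpeg1 in 46.2% and 24.8% with a ratio of 2.44; without the top cells these ratios were 2.56, 2.19 and 2.17. Lyz2 and Ly6c2 are themselves monocyte markers and held 667 and 64 of the 804 UMIs of that list in KPT members. Of the other 6 monocyte markers, Ms4a4c and Ms4a6c had 17 and 21 UMIs in KPT members, all in 1 cell for each gene, and 3 and 5 UMIs in KP members. The part of monocyte RNA in these ratios was not tested.

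**Figure D5:**
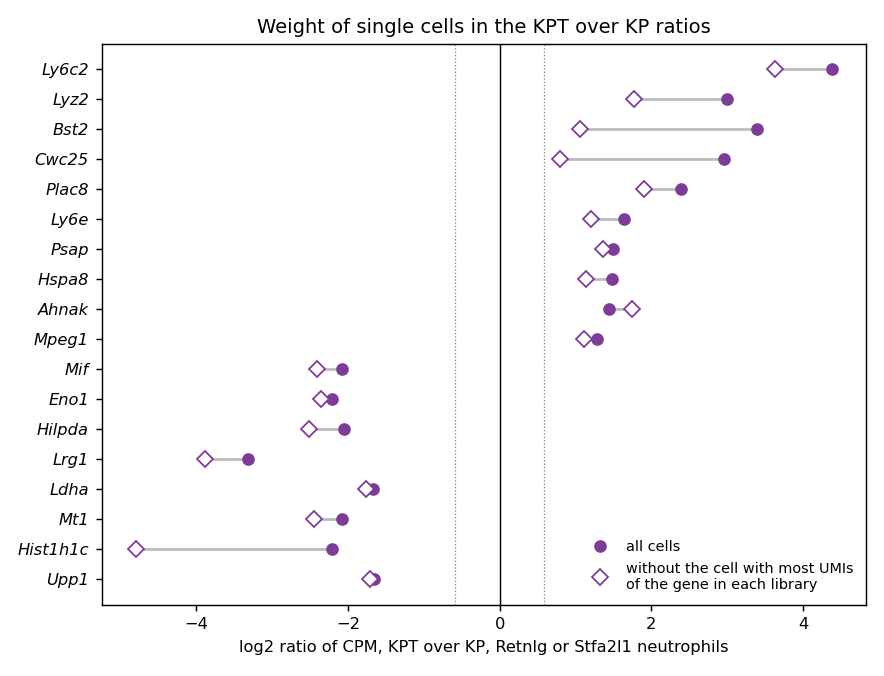
Log2 ratio of CPM, KPT over KP, in members for the genes named at each end, over all cells (filled circles) and without the cell that held the most UMIs of the gene in each library (open diamonds); dotted lines mark 1.5-fold. Rsad2 and Stfa1, which had no KPT UMI left without the top cell, are not drawn. The ratio of Cwc25 is 7.74 over all cells and 1.73 without the top cells, and that of Ldha 0.313 and 0.296.

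The remaining named genes at the lower end had few KPT UMIs. Rsad2, the antiviral enzyme viperin, had 1 UMI in KPT members and 58 in KP members, a ratio of 0.0504 (0.00125 to 0.292), and Lrg1, a secreted leucine-rich glycoprotein, had 2 and 58 UMIs. Hist1h1c, a linker histone gene, had 7 and 95 UMIs, and Upp1, uridine phosphorylase 1, 29 and 266 UMIs with a ratio of 0.319. Mt1, a metallothionein, stood at 77.8 CPM in KPT members and 327 CPM in KP members, but its ratio of 0.238 was 1.04 with every cell weighted equally and 1.21 where the rule was applied after thinning. Among the genes of the rule and the markers, S100a8 stood at 27541 CPM in KPT members and 40379 CPM in KP members (0.682), S100a9 at 33421 and 42623 CPM (0.784), and Slpi, a secreted inhibitor of leukocyte proteases, at 5693 and 4254 CPM (1.34). Wfdc21 gave 0.624 over all members, but 1.73 among cells with 3 or more UMIs of Retnlg and Stfa2l1 and 1.21 where the rule was applied after thinning.

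Of 29 type I interferon-inducible genes, 6 had 50 UMIs in members. Isg15, Isg20, Rsad2 and Slfn1 were lower in KPT members and Bst2 higher, where 15.2% and 16.3% of all genes were. Isg15, a ubiquitin-like modifier, stood at 226 CPM in KPT members and 463 CPM in KP members, a ratio of 0.487 (0.317 to 0.724). Slfn1, a schlafen gene, gave 0.538, but 1.08 with every cell weighted equally and 1.21 where the rule was applied after thinning. The median log2 ratio of -0.97 was 0.55 over the 15 genes with at least 20 UMIs and -0.00 with every cell weighted equally, so the direction of this list depended on the setting. In other neutrophils 8 genes were measured, 2 higher and 0 lower, against 14.4% and 10.5% of all genes. Ifitm1 and Ifitm2, membrane proteins that restrict the entry of viruses, stood at 1073 and 1626 CPM in KPT members and at 2199 and 2888 CPM in KP members. The Ifitm1 ratio of 0.488 was 1.199 where the rule was applied after thinning. Cxcl10, a chemokine that draws T cells and belongs to the next list, had 9 UMIs in KPT members and 107 in KP members, and 64.5% of the KP UMIs lay in 1 cell.

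Of 30 genes of the NF-kB and cytokine list, 27 were measured, 8 were at least 1.5-fold higher and 3 lower in KPT members, against 16.3% and 15.2% of all genes, and the median log2 ratio was 0.30. With every cell weighted equally 14 were higher and 1 lower, with a median of 0.63. In other neutrophils 28 were measured, 5 were higher and 5 lower, against 14.4% and 10.5% of all genes, with a median of 0.02. Tnf stood at 2084 CPM in KPT members and 1142 CPM in KP members, a ratio of 1.83 (1.56 to 2.13), and Il1a, interleukin 1 alpha, at 1836 and 868 CPM, a ratio of 2.12 (1.78 to 2.51). The Il1a ratio was 0.552 among cells with 3 or more UMIs of Retnlg and Stfa2l1 and 0.387 where the rule was applied after thinning. Nfkb1, the p105 precursor, had 33 and 36 UMIs in KPT and KP members and a ratio of 2.68. Ptgs2, cyclooxygenase 2, gave 1.72, Ccl3, a chemokine that binds Ccr1, 0.643, and Cxcl3 0.551, which was 1.12 where the rule was applied after thinning. Il1b, the interleukin 1 beta gene, did not pass 1.5-fold, with 10710 CPM in KPT members and 12435 CPM in KP members.

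Receptors for growth factors and cytokines were higher in 5 of 6 measured genes of 18 listed, against 16.3% of all genes, with a median log2 ratio of 0.73; none was lower. In other neutrophils 2 of 15 measured genes were higher and 1 lower, near the 14.4% and 10.5% of all genes, with a median of 0.21. Csf2ra and Csf2rb, the chains of the receptor for granulocyte-macrophage colony-stimulating factor, stood at 280 and 373 CPM in KPT members and at 130 and 213 CPM in KP members, ratios of 2.15 and 1.75, and Ifnar1, a chain of the type I interferon receptor, stood at 241 CPM in KPT members and 55.9 CPM in KP members. Ifnar1 had a UMI in 33.3% of KPT members and 9.94% of KP members, and its ratio of 4.31 was 3.45 without the top cells. Csf3r, the receptor for granulocyte colony-stimulating factor that the rule used, stood at 583 CPM in KPT members and 642 CPM in KP members. Among barcodes with at least 500 genes and at most 5% mitochondrial UMIs, 2 of 6 genes of the list were higher, and without the deepest barcode of each library 3 of 5 were higher and 1 lower. KPT members were the deeper cells, and the part of depth in this list was not tested.

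Cebpb, a C/EBP factor of mature neutrophils, stood at 3399 CPM in KPT members and 6168 CPM in KP members, a ratio of 0.551 (0.496 to 0.611), and was detected in 94.9% and 95.7% of members. Cebpd gave 0.304 on 5 and 48 UMIs. Klf6, a zinc finger factor, stood at 1268 and 671 CPM, a ratio of 1.89 (1.54 to 2.31). Of 30 listed factors 23 were measured, 2 were higher and 4 lower, shares below the background of 16.3% and near that of 15.2%. Mcl1, which keeps neutrophils alive, stood at 1773 CPM in KPT members and 2864 CPM in KP members, a ratio of 0.619 (0.534 to 0.715). Bcl2l11, the gene of its antagonist Bim, stood at 490 and 256 CPM, a ratio of 1.92 (1.37 to 2.66). Of 18 listed survival and death genes 11 were measured, 3 were higher and 2 lower, against 16.3% and 15.2% of all genes. The median log2 ratio of that list was -0.01, so it did not go one way. Cxcr4 gave 0.582 (0.409 to 0.810) in members, with 334 CPM in KPT and 575 CPM in KP. The oxidative phosphorylation genes did not stand apart between the libraries: 1 of 16 measured was higher and 0 lower, with a median log2 ratio of 0.14.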

How the data were processed

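The deposited matrices hold unnormalised counts of UMIs for each gene in each barcode, written by Cell Ranger 6.0.1 per the file headers, already reduced to called cells. The submitters' processing notes also name Seurat and mm10. Library totals were 52586319 UMIs in KPT and 39819010 UMIs in KP.

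Barcodes were chosen by the rule given above, and UMIs were summed per library and group and expressed as CPM. Members, gene lists and comparisons were chosen with earlier results of these data known. With 1 library per group, no test was made: ratios carry exact conditional Poisson intervals and shares Clopper-Pearson intervals, at 95%, covering counting error only, since 1 barcode can hold many UMIs. Genes with at least 50 UMIs over both groups of a comparison were counted at a ratio of 1.5 between libraries and 2 between members and other neutrophils. A list is given by its counts and its median, with the same over all genes beside it. A gene at 0 in 1 group has a floor of 3 counts. The named genes have at least 50 UMIs in the group where they are higher, in at least 5% of its cells, and rank among the first 10 each way by the bound of the interval nearest to 1. Left out of that ranking were antigen receptor, haemoglobin, ribosomal, mitochondrial and sex-linked genes, and models with no symbol of their own. Rule genes, markers, Tdg and, per list, the members with the most UMIs or the most extreme ratios were added. Some genes that this rule names are not reported here. Thinning drew 500 UMIs per cell without replacement. No doublet caller was run; barcodes with at least 3 markers of another cell type were left out in an alternative. The procedure was tried on simulated Poisson counts of summed libraries. These had no clumping of UMIs in single cells, so they cannot show how the intervals hold for genes with most UMIs in 1 cell. The number of deposited value columns not used was 0. Promoter windows come from RefSeq (GRCm38.p6) and gene positions from GENCODE M21. Python 3.11.15, numpy 2.4.6, scipy 1.17.1, pandas 2.3.3 and matplotlib 3.10.9 were used.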

Additional observations from a re-analysis of the deposited data

How the results depend on the processing

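No paired analysis was possible because each group has 1 library. The members' share of kept barcodes in KPT over KP ranged between 0.140 and 0.296 over 9 settings. With a threshold of 3 Retnlg and Stfa2l1 UMIs it was 0.140, and the share of neutrophils 0.444. In members, genes higher in KPT than in KP numbered 123 with that threshold against 196 as reported, 23 with the rule applied after thinning to 500 UMIs, 42 with levels thinned, and 588 and 33 with at least 20 and 200 UMIs per gene. Genes lower numbered 36, 49, 453 and 51 under the last 4 of these settings, against 183. Genes higher in KPT members than in other KPT neutrophils (46) numbered 83 with the threshold of 3, 7 with the rule or the levels thinned, 28 without the 5% deepest members, and 142 and 12 with at least 20 and 200 UMIs. Genes lower (96) numbered 152 and 336 with thresholds of 2 and 3, 19 with the rule thinned, 193 with cells weighted equally, 16 with levels thinned, and 369 and 19 with at least 20 and 200 UMIs. In KP, genes higher in members (33) numbered 12 with the rule thinned, 63 when centred on the median gene, 14 with levels thinned, and 111 and 13 with at least 20 and 200 UMIs; genes lower (142) numbered 67, 70, 35, 568 and 9 in that order, and 278 with cells weighted equally. The filter on UMIs sets how many genes are counted, and thinning removes UMIs; for the other settings the cause was not tested.

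The direction between libraries was the opposite with the rule applied after thinning, which left 19 KPT and 92 KP members, for Lyz2 (0.519), Mt1 (1.21), Wfdc21 (1.21), Slfn1 (1.21), Ifitm1 (1.199), Il1a (0.387) and Cxcl3 (1.12). So it was with the threshold of 3 for Ly6e (0.795), Wfdc21 (1.73) and Il1a (0.552), with levels thinned for Plac8 (0.917), with cells weighted equally for Mt1 (1.04) and Slfn1 (1.08), and with at least 20 UMIs for the type I interferon median (log2 0.55). Among 1872 values of 129 gene ratios, 1424 moved by less than their interval. The hypoxia and glycolysis median stayed below 0 in all 16 settings, between -1.51 and -0.56, where the highest value rested on 4 genes. Leaving out the deepest barcode, or the barcode with the most UMIs of a gene, was chosen after seeing the data. Depth limits what 39 KPT members with 128573 UMIs can show of low genes.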
